A study of Rattus norvegicus with 18 samples.

Results

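The expression of 9 interferon-stimulated genes was followed in rat liver, namely Isg15, Mx1, Mx2, Oas1a, Ifit2, Ifit3, Irf7, Rsad2 and Usp18. They were chosen by gene symbol as representative targets of type I interferon, and they make up 9 of the 32623 genes in each deposited table. All 9 were found there and all 9 were among the 12904 genes that passed the filter on low counts. RNA-seq was performed on liver tissue from 18 male Wistar rats, 6 in each of 3 groups, with 1 library per rat. Control rats were kept on chow and normal water for 12 weeks. NASH rats, a model of nonalcoholic steatohepatitis, inhaled carbon tetrachloride (CCl4) and drank water with phenobarbital for 6 weeks, and then received 4 weeks of a diet rich in fat and cholesterol (HFCD). The NASH-CH group, a model of NASH with cirrhosis, received CCl4 and phenobarbital for 24 weeks, with the HFCD added for the last 16 weeks. Control rats had none of the 3 agents and followed a protocol of another length, so that CCl4, phenobarbital, diet and duration cannot be told apart, and NASH rats were the only treated animals with weeks free of CCl4 before the end. The age of the rats is not given in the sources used here.

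Type I interferons are secreted when a cell senses foreign or misplaced nucleic acid. They bind a receptor made of Ifnar1 and Ifnar2, which activates the kinases Jak1 and Tyk2 and a transcription factor complex that contains Stat2 and Irf9. That complex binds the interferon-stimulated response element (ISRE) in the promoters of target genes, most of which encode antiviral proteins, and it also induces genes that prolong or switch off the response. In liver, hepatocytes and the resident macrophages (Kupffer cells) can both respond to interferon.

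The promoter sequences of the members are shown because the ISRE is what these genes are known to share. RefSeq promoters (build GRCr8) were matched by symbol for 5 of the 9 members, namely Mx1, Oas1a, Ifit3, Irf7 and Rsad2. The 250 bases before the start of each gene were searched for the ISRE core, written GAAANNGAAA or on the other strand TTTCNNTTTC, and 4 of the 5 promoters held it, in comparison to 1140 of all 33469 promoters in the table (3.41%). The 4 stretches below cover the 200 bases before the gene start, 5′ to 3′ on the strand of the gene, with the ISRE core in capitals. Oas1a lies at chr12:41330266-41330465 on the plus strand, Ifit3 at chr1:241527126-241527325 on the plus strand, Irf7 at chr1:205800024-205800223 on the minus strand and Rsad2 at chr6:48788121-48788320 on the minus strand.
Oas1a: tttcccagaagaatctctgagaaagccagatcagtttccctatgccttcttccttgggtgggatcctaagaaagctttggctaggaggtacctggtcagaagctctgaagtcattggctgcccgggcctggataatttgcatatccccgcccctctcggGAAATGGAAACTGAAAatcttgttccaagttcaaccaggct
Ifit3: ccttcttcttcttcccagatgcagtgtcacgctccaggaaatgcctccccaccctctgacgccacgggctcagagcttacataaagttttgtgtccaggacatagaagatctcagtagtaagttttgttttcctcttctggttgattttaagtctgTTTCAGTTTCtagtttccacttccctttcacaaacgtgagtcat
Irf7: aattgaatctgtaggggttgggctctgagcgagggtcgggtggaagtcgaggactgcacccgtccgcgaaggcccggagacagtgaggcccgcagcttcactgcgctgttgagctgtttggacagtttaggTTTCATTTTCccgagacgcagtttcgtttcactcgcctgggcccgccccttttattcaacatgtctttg
Rsad2: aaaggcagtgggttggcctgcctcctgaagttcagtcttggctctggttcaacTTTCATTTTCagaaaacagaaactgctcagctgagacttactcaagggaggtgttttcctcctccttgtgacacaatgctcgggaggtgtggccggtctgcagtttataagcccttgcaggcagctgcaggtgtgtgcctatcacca
Oas1a held 2 overlapping matches, GAAATGGAAA from 41 to 32 bases and GAAACTGAAA from 35 to 26 bases before the start. Ifit3 held TTTCAGTTTC from 44 to 35 bases before the start, and the same letters, TTTCATTTTC, stood in Irf7 from 69 to 60 bases and in Rsad2 from 147 to 138 bases before it. No match was found in the window of Mx1. The gamma-activated site (GAS), the element known for the response to interferon gamma and written TTCNNNGAA, was found in 1 of the 5 promoters, that of Oas1a, and in 7.67% of all promoters. On the lists of related genes used below, the ISRE core was found in 24 of 56 promoters of other type I interferon-stimulated genes (42.9%) and in 15 of 24 promoters of interferon gamma-inducible genes (62.5%). These matches describe letters only, and binding was not measured.

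Library totals ranged from 19498516 to 27174006 counts in controls, from 20827733 to 29491895 in NASH and from 44680345 to 60117806 in NASH-CH, so that depth cannot be told apart from the NASH-CH group. All values below are counts scaled to a common library total (CPM) after normalization by the trimmed mean of M values (TMM). The factors of that normalization ranged from 0.790 to 1.03 in controls, from 0.983 to 1.15 in NASH and from 0.970 to 1.28 in NASH-CH. The label of the tissue was checked with hepatocyte markers, and albumin (Alb) ranged from 41374 to 131558 CPM over all 18 rats. The members were low in all groups, with 16 to 1398 counts per library. The expected counts of Mx1 and Mx2 were not whole in any of the 18 libraries and those of Oas1a in 12 of 18, which means that some of their reads were shared with similar genes, and the split between copies is uncertain for these 3 genes.

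In comparison to control animals, NASH rats had no interferon-stimulated gene that passed the test. By limma-voom with Benjamini-Hochberg adjustment over all genes, 0 of 9 members were called in NASH, in comparison to 403 of all 12904 tested genes (3.12%). At an unadjusted p under 0.05, 3 members had lower values in NASH (Mx2, Irf7 and Usp18), against 11% of all genes on that side. The edgeR quasi-likelihood test and the DESeq2 Wald test also called 0 members at the adjusted threshold. In NASH-CH rats Usp18 fell and no other member passed, so that 1 of 9 members was called, in comparison to 2192 of all tested genes (17%), or 8.6% on the lower side. A share of 1 in 9 lies near these background shares. At an unadjusted p under 0.05, the same 3 symbols (Mx2, Irf7 and Usp18) had lower values in NASH-CH, against 15.6% of all genes on that side. Without control rat 1 or without NASH-CH rat 5 the count in NASH-CH was 2 (Irf7 and Usp18), and without control rat 2 it was also 2 (Mx2 and Usp18).

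The log2 fold changes of all 9 members lay below 0 in NASH, and those of 8 of 9 in NASH-CH, with medians of -0.38 and -0.43, but with scaling by library size only it was 7 of 9 in each. Over all tested genes the median was 0.01 in both comparisons. That scaling put the median over all genes at 0.23 for NASH and at 0.27 for NASH-CH, and the median of the members relative to it was -0.43 and -0.53. Both comparisons use the same 6 controls, so their directions are not independent of each other. The groups overlapped for every member in every comparison, as the plot of each gene by rat shows.

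**Figure D1:**
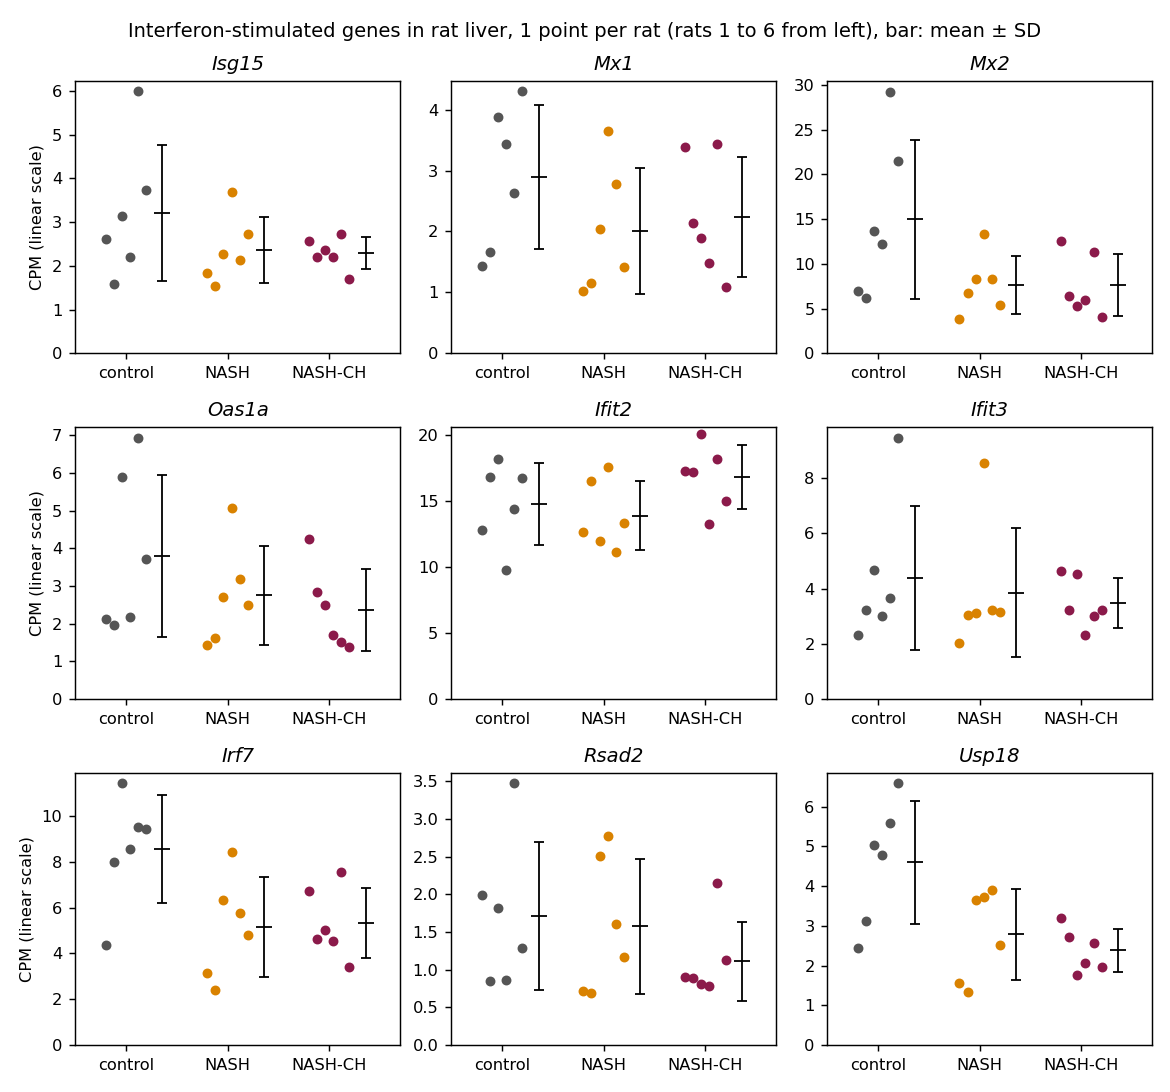
Level of each interferon-stimulated gene in each rat, as TMM-scaled CPM on a linear axis from 0, with rats 1 to 6 of a group from left to right and the mean ± SD beside them. The 3 groups overlap in all 9 panels, and the spread within a group is wide, as in Mx2, where controls range from 6.21 to 29.2 CPM.

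Usp18 (ENSRNOG00000037198) removes Isg15 from proteins and blocks signalling at the type I receptor. It ranged from 2.43 to 6.60 CPM in controls (median 4.92), from 1.33 to 3.90 in NASH (median 3.10) and from 1.77 to 3.20 in NASH-CH (median 2.32). Control rats 1 and 2 lay in the range of the treated rats, and 3 of 6 NASH-CH rats and 2 of 6 NASH rats lay below every control. Mean levels were 4.60 ± 1.56 CPM in controls, 2.79 ± 1.15 in NASH and 2.38 ± 0.543 in NASH-CH (SD, n = 6 each). In NASH-CH the log2 fold change was -0.94 (SE 0.26, 95% interval -1.48 to -0.39, adjusted p = 0.0191 by limma-voom), and 6 of 6 rats lay below the control mean. The call held in each of the 12 fits that left out 1 rat of the compared groups, and with scaling by library size only the adjusted p was 0.0836. In NASH the log2 fold change was -0.77 (SE 0.29, adjusted p = 0.134), which did not pass.

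Irf7 (ENSRNOG00000017414) is the transcription factor that amplifies the production of type I interferons. It ranged from 4.36 to 11.5 CPM in controls (median 9.01), from 2.40 to 8.43 in NASH (median 5.28) and from 3.42 to 7.58 in NASH-CH (median 4.83). The control range rests on rat 1 at its lower end, since the other 5 controls lay at 8.02 CPM or above and only NASH rat 4 reached them. In NASH the log2 fold change was -0.80 (95% interval -1.40 to -0.21, adjusted p = 0.114 by limma-voom), and in NASH-CH -0.69 (-1.23 to -0.15, adjusted p = 0.0716). Neither passed, although 6 of 6 rats of each treated group lay below the control mean. With sample quality weights both passed, at adjusted p = 0.0332 in NASH and 0.0395 in NASH-CH, and without control rat 1 the adjusted p in NASH-CH was 0.0289. Without NASH-CH rat 5 it was 0.0409.

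Isg15 (ENSRNOG00000021802) is a ubiquitin-like protein that is attached to other proteins during the interferon response. It ranged from 1.58 to 6.00 CPM in controls (median 2.87), from 1.54 to 3.69 in NASH (median 2.20) and from 1.69 to 2.73 in NASH-CH (median 2.28). The highest value was that of control rat 5, and the 6 NASH-CH rats lay close together inside the control range. By limma-voom the difference on the log2 scale was -0.34 for NASH (adjusted p = 0.501) and -0.35 for NASH-CH (adjusted p = 0.336), with 95% intervals of -0.90 to 0.23 and -0.85 to 0.16.

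Mx1 (ENSRNOG00000001959) and Mx2 (ENSRNOG00000001963) are dynamin-like GTPases that trap viral components. Mx2 ranged from 6.21 to 29.2 CPM in controls (median 13.0), from 3.88 to 13.4 in NASH (median 7.47) and from 4.10 to 12.5 in NASH-CH (median 6.18). Control rats 5 and 6 reached 29.2 and 21.5 CPM, while all treated rats lay at 13.4 CPM or below, and control rats 1, 2 and 4 lay among them. Its log2 fold change was -0.87 in NASH (95% interval -1.68 to -0.05, adjusted p = 0.206 by limma-voom) and -0.88 in NASH-CH (-1.65 to -0.11, adjusted p = 0.105). The value did not pass, with 6 of 6 rats of each treated group below the control mean. In NASH-CH it passed by the DESeq2 Wald test (adjusted p = 0.0392) and without control rat 2 (adjusted p = 0.0404). Mx1 ranged from 1.43 to 4.30 CPM in controls (median 3.03), from 1.03 to 3.65 in NASH (median 1.73) and from 1.09 to 3.44 in NASH-CH (median 2.01). Here no control stood clearly apart, and log2 differences of -0.58 for NASH (adjusted p = 0.420) and -0.39 for NASH-CH (adjusted p = 0.463) were not detectable beyond the spread by limma-voom.

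Oas1a (ENSRNOG00000001369) makes the oligoadenylates that activate the ribonuclease RNase L. It ranged from 1.97 to 6.94 CPM in controls (median 2.96), from 1.43 to 5.07 in NASH (median 2.60) and from 1.38 to 4.24 in NASH-CH (median 2.10). Control rats 3 and 5 were the highest, and 3 of 6 NASH-CH rats and 2 of 6 NASH rats lay below every control. On the log2 scale NASH differed from control by -0.38 (adjusted p = 0.612 by limma-voom) and NASH-CH by -0.63 (95% interval -1.37 to 0.10, adjusted p = 0.228).

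Rsad2 (ENSRNOG00000007539), or viperin, makes a modified nucleotide that stops viral RNA synthesis. It ranged from 0.848 to 3.47 CPM in controls (median 1.55), from 0.686 to 2.77 in NASH (median 1.39) and from 0.786 to 2.16 in NASH-CH (median 0.896). The highest rats were control rat 5, NASH rats 4 and 3 and NASH-CH rat 5. Its fold change on the log2 scale was -0.07 in NASH (adjusted p = 0.946 by limma-voom), with a 95% interval of -0.94 to 0.80, and -0.43 in NASH-CH (adjusted p = 0.468). The value in NASH turned to 0.088 with scaling by library size only.

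Ifit2 (ENSRNOG00000036604) and Ifit3 (ENSRNOG00000022839) belong to a family of proteins with tetratricopeptide repeats that act on viral RNA and its translation. Ifit2 ranged from 9.75 to 18.2 CPM in controls (median 15.6), from 11.2 to 17.6 in NASH (median 13.0) and from 13.2 to 20.1 in NASH-CH (median 17.3). Its spread was narrow, with a coefficient of variation of 21.1% in controls, 18.7% in NASH and 14.3% in NASH-CH, in comparison to 59.3% for Mx2 in controls. It was the only member with a log2 fold change above 0 in NASH-CH, at 0.20 (95% interval -0.12 to 0.51, adjusted p = 0.380 by limma-voom), while in NASH it was -0.09 (adjusted p = 0.787) and turned to 0.14 with scaling by library size only. Ifit3 ranged from 2.31 to 9.47 CPM in controls (median 3.45), from 2.05 to 8.56 in NASH (median 3.14) and from 2.31 to 4.64 in NASH-CH (median 3.23). Control rat 6 and NASH rat 4 stood far above the other rats of their groups, and the medians of the 3 groups lay close together. For Ifit3 the log2 fold change was -0.24 in NASH (adjusted p = 0.725), and -0.26 for NASH-CH (adjusted p = 0.588). Without control rat 6 it was 0.054 in NASH, and 0.030 for NASH-CH.

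NASH-CH and NASH rats overlapped in all of these genes. In this comparison 0 of 9 members were called, against 542 of all 12904 tested genes (4.2%), and 0 members had an unadjusted p under 0.05 by limma-voom, in comparison to 17.5% of all genes, or by edgeR or DESeq2. The log2 fold changes ran from -0.36 for Rsad2 (95% interval -1.15 to 0.43, adjusted p = 0.678) to 0.29 for Ifit2 (-0.03 to 0.60, adjusted p = 0.332). The median was -0.01, as against 0.01 over all tested genes, and 6 of 9 values lay below 0, or 3 of 9 with scaling by library size only. For Usp18 the value was -0.17 (-0.75 to 0.41, adjusted p = 0.814).

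**Figure D2:**
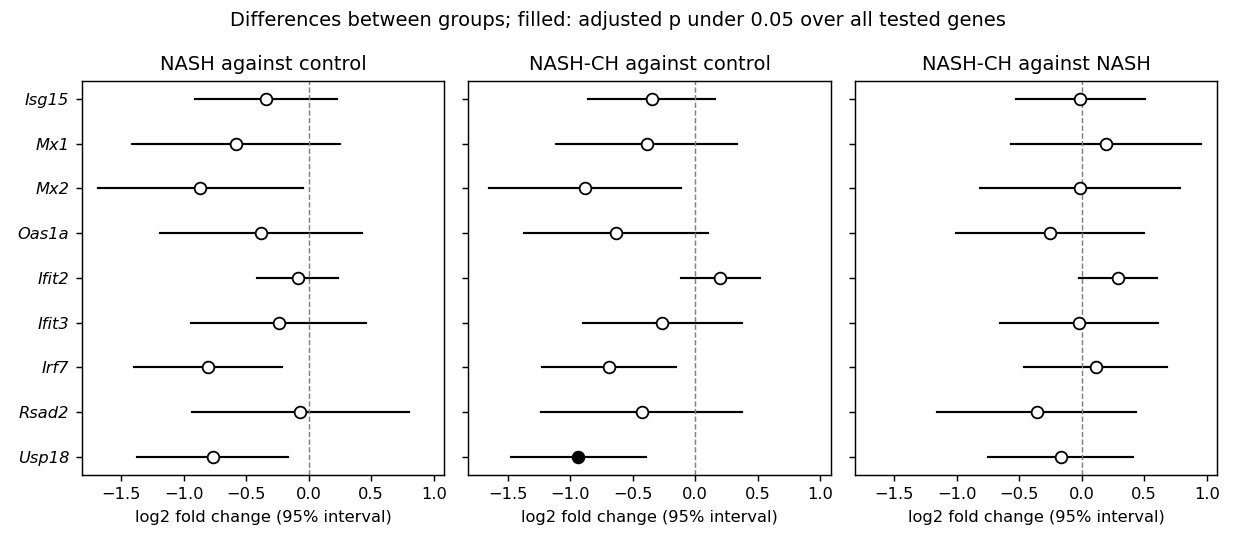
Log2 fold change (point) and 95% interval (line) of each interferon-stimulated gene in the 3 comparisons, with filled points for an adjusted p under 0.05 over all tested genes. Usp18 in NASH-CH against control, at -0.94, is the filled point, and all other intervals go with open points.

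Rats of the same group differed widely, and over the 27 combinations of a member and a group the highest rat was 1.52 to 4.70 times the lowest. The log2 CPM of each member was converted to a z-score over the 18 rats, and the mean over the 9 members is given as a description of each rat. It was highest in control rat 5 (1.30), control rat 6 (1.22), NASH rat 4 (1.15) and control rat 3 (1.06). Its lowest values were in NASH rat 1 (-1.26), NASH rat 2 (-1.01) and NASH-CH rat 6 (-0.88). The heatmap of rats shows that these were not single genes, since NASH rat 4 was the highest of its group for 8 of the 9 members, and NASH-CH rat 6 the lowest of its group for 5. Control rats 1 and 2 were each the lowest control for 4 members. Control rat 5 also had the highest summed level of 9 macrophage and Kupffer cell markers, 516 CPM against 277 to 354 in the other controls, and the part of this in its high values was not tested. NASH rat 4 had the highest such sum of its group as well, at 329 CPM, whereas control rat 6 had the lowest of the controls.

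**Figure D3:**
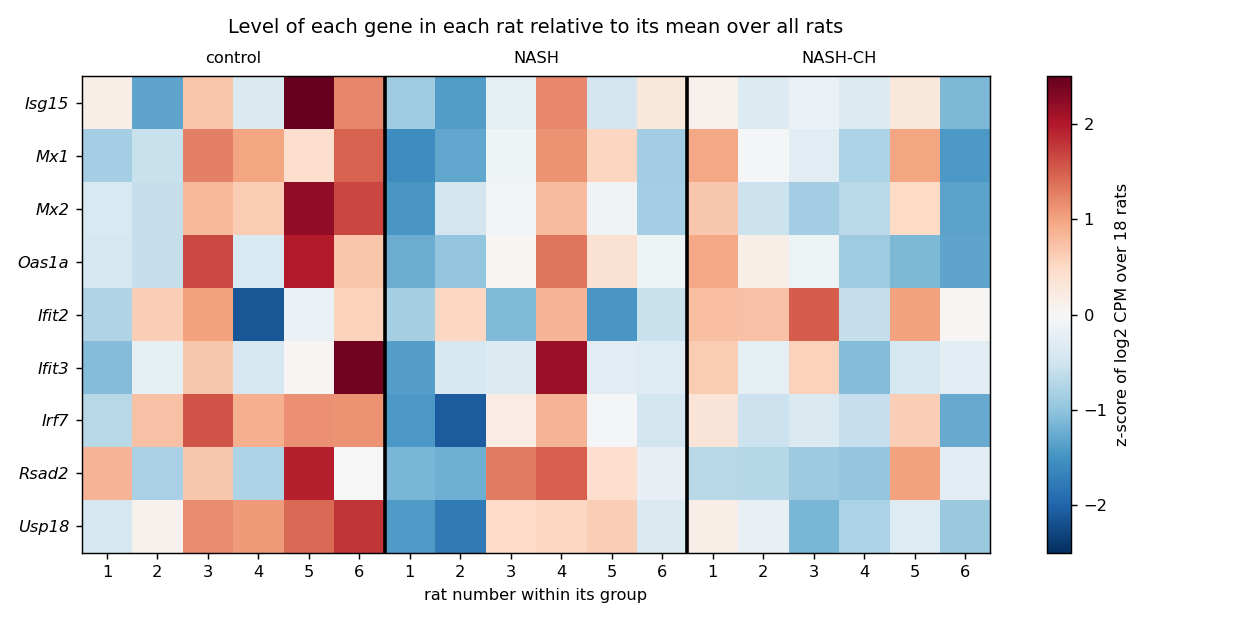
Z-scores of log2 CPM of the 9 interferon-stimulated genes (rows) in the 18 rats (columns, by group and rat number), with red above and blue below the mean of the gene over all rats. Columns tend to be of 1 colour, red in control rat 3, control rat 5 and NASH rat 4 and blue in NASH rat 1, while the Ifit2 row runs differently from the others.

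The members varied together from rat to rat. Over the 36 pairs of members and 18 rats, the median Pearson correlation of log2 CPM was 0.61 and 34 of 36 were above 0. By a two-sided permutation test with 100000 resamples, 27 of 36 had a Benjamini-Hochberg adjusted p under 0.05 with Pearson's r and 27 with Spearman's rho. With group means removed, the median was 0.60 and 23 passed, so the relation was also present within groups. Irf7 and Usp18 had the highest correlation (r = 0.89, rho = 0.89, adjusted p = 0.0003 for r and 0.00036 for rho by permutation), which was 0.86 with group means removed and 0.85 without the 2 rats farthest from the median of Irf7. Mx1 and Irf7 followed (r = 0.86, rho = 0.86, adjusted p = 0.0003 and 0.00036 by permutation), with 0.87 when group means were removed and 0.83 without the 2 farthest rats. Ifit2 was apart from this pattern. The median of its 8 pairs was 0.14, in comparison to 0.68 in the 28 pairs without it, and its pair with Ifit3 was the only one to pass (r = 0.51, rho = 0.62, adjusted p = 0.0387 and 0.0136 by permutation). All pairs share the scaling factor of each library. No such count was made for pairs of other genes, so how unusual 27 of 36 is in these livers cannot be told.

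The genes whose level was most like the mean z-score of the 9 members over the 18 rats, among 12895 other tested genes, were led by Irf9 (r = 0.82), a DNA-binding subunit of the complex named above. The 10 most alike, down to r = 0.76, also held RT1-T24-3, Slfn4, Herc6, Slc15a3, Dse, Ifih1, Cd38 and ENSRNOG00000059097. Of these 10, Irf9, Slfn4, Herc6 and Ifih1 were on the lists of interferon pathway genes used here, and so were 11 of the 50 genes most alike (22%), whereas the 4 lists hold 103 of the 12895 genes (0.799%). With group means removed, the r of Irf9 was 0.81 and it ranked at position 4. These values describe likeness over rats that share 3 groups, and no test was made of them.

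The interferons themselves were at the limit of detection. Of 14 interferon symbols sought, 11 were in the tables and 0 passed the filter on low counts. The genes Ifna2, Ifna4, Ifna5, Ifna11, Ifna16l1, Ifnl1 and Ifnl3 had no count in any of the 18 libraries, which allows up to 3 counts in each, or 0.0390 to 0.187 CPM depending on depth and counting error only. Ifnb1, the type I interferon made by most cells, had 1 count in 1 NASH-CH library, and Ifng, made by T and NK cells, had 1 count in 1 control library. The largest number of counts in any library was 7, for Ifnk, so a difference in interferon transcripts was not detectable at this depth.

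Receptors and signalling genes showed few changes. Of 20 such genes, 19 were tested, and in NASH 0 were called in either direction by limma-voom or edgeR (3 and 2 at an unadjusted p under 0.05), while in NASH-CH 2 rose and 0 fell, beside 17% of all genes called. With scaling by library size only, 1 rose in NASH and 5 in NASH-CH, and with the 2 groups fitted alone 0 rose in NASH-CH. Ifnar1, a subunit of the type I receptor, ranged from 22.0 to 26.8 CPM in controls (median 23.8) and from 25.0 to 32.7 in NASH-CH (median 28.7), a difference of 0.25 on the log2 scale (SE 0.08, adjusted p = 0.0474 by limma-voom). Il10rb, a subunit of the lambda interferon and interleukin-10 receptors, ranged from 2.44 to 4.91 CPM in controls and from 4.26 to 7.62 in NASH-CH, a difference of 0.54 on the log2 scale (SE 0.17, adjusted p = 0.0383). Both calls were near the threshold. That of Ifnar1 held in 3 of 12 fits without 1 rat, and was lost without control rats 1, 3, 4 or 5 or NASH-CH rats 2 to 6, with adjusted p from 0.0626 to 0.118. That of Il10rb held in 5 of 12, and was lost without control rats 1, 2, 3 or 4 or NASH-CH rats 2, 5 or 6, with adjusted p from 0.0524 to 0.127. With the 2 groups fitted alone both calls were lost (adjusted p = 0.0878 for Ifnar1 and 0.0778 for Il10rb), and after thinning to equal totals that of Il10rb was lost (0.0869). The call of Ifnar1 was also lost with DESeq2 size factors (0.0536). Stat2 and Irf9, which carry the signal to the nucleus, did not pass in either comparison with controls. For Stat2 the log2 fold change was -0.21 for NASH (adjusted p = 0.582 by limma-voom) and -0.06 for NASH-CH (adjusted p = 0.864), and for Irf9 it was -0.18 in both (adjusted p = 0.626 and 0.526). Stat2 was at 58.4 ± 4.24 CPM in controls, 52.2 ± 14.8 in NASH and 58.2 ± 20.4 in NASH-CH (SD, n = 6 each). With scaling by library size only, the values of both genes lay above 0 in both comparisons. Irf1, a transcription factor that interferon gamma induces quickly, varied widely, from 9.22 to 52.0 CPM in controls and from 4.82 to 22.7 in NASH, and its log2 fold change of -1.03 in NASH did not pass (adjusted p = 0.199). Of the other receptor subunits, Ifnar2 and Ifngr1 had log2 fold changes from -0.19 to 0.15 in the 2 comparisons, with adjusted p of 0.263 or above. With scaling by library size only, Ifngr1 passed in NASH-CH (0.41, adjusted p = 0.0281 by limma-voom), where the median over all genes was 0.27.

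Sensors of foreign nucleic acid and their adaptors were found for 17 of 21 symbols, some genes being sought under more than 1 name, and 12 were tested. In NASH 0 of 12 were called by limma-voom or edgeR (2 and 3 at an unadjusted p under 0.05), beside 3.12% of all genes by limma-voom. By DESeq2 1 fell, with sample quality weights 1 fell, and with scaling by library size only 1 rose. In NASH-CH 1 rose, Ikbke, a kinase that activates interferon regulatory factors, beside 17% of all genes called. Ikbke ranged from 5.38 to 8.80 CPM in controls (median 7.25), from 3.90 to 9.34 in NASH (median 5.15) and from 8.17 to 16.5 in NASH-CH (median 10.7). Its log2 fold change was 0.63 against control (SE 0.20, adjusted p = 0.0356 by limma-voom) and 0.96 against NASH (SE 0.20, adjusted p = 0.00816). The call against NASH held in each of the 12 fits without 1 rat, and that against control in 6 of 12, since it was lost without control rats 3, 5 or 6 or NASH-CH rats 2, 5 or 6, with adjusted p from 0.0559 to 0.0810, and also with sample quality weights (0.0639). Ddx58, the RNA sensor RIG-I, ranged from 17.7 to 27.4 CPM in controls and from 14.2 to 20.2 in NASH, and its log2 fold change of -0.42 in NASH (adjusted p = 0.0825) did not pass. It passed without control rat 6, at an adjusted p of 0.0308 in NASH and 0.0498 in NASH-CH, where the value with all rats was -0.30 (adjusted p = 0.118). In NASH it also passed by the DESeq2 Wald test (adjusted p = 0.0295) and by limma-voom with sample quality weights (adjusted p = 0.0279). Ifih1, the RNA sensor MDA5, had -0.16 in both comparisons with controls (adjusted p = 0.528 and 0.463), and Irf3, which the sensors activate, had -0.13 and -0.02 (adjusted p = 0.469 and 0.895). The values of these last 2 genes lay above 0 with scaling by library size only.

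Among other type I interferon-stimulated genes, all calls in NASH were falls, while those in NASH-CH went in both directions. Of 63 symbols 54 were found and 50 tested, and 0 rose and 4 fell in NASH, whereas 2 rose and 3 fell in NASH-CH, beside 3.12% and 17% of all genes called. Over the other settings run, 0 rose and between 2 and 10 fell in NASH (8 by DESeq2, 10 with sample quality weights, 2 with scaling by library size only), and in NASH-CH between 1 and 6 rose and between 1 and 5 fell. At an unadjusted p under 0.05 by limma-voom, 17 of the 50 genes passed in NASH, Rnf213 with a higher value and the others with lower ones. Of all genes, 11% passed on the lower side. In NASH-CH 16 passed, in both directions. Of the 50 log2 fold changes, 38 lay below 0 in NASH and 31 in NASH-CH, or 27 and 18 with scaling by library size only. The median of the 50 was -0.29 in NASH and -0.12 in NASH-CH. The value for NASH-CH was 0.13 with scaling by library size only, when 6 rose and 1 fell. Relative to the median over all genes it was -0.14 with either scaling. Ifi27, a mitochondrial protein, ranged from 184 to 293 CPM in controls (median 203), from 121 to 159 in NASH (median 143) and from 99.9 to 178 in NASH-CH (median 122). Neither treated group overlapped with the controls. For Ifi27 the log2 fold change was -0.65 in NASH (SE 0.14, adjusted p = 0.0216 by limma-voom) and -0.84 in NASH-CH (SE 0.15, adjusted p = 0.000958), but in NASH the adjusted p was 0.0573 without control rat 3, 0.0520 without control rat 5 and 0.0536 without NASH rat 3. Ifi27l2b, of the same family, ranged from 54.2 to 101 CPM in controls (median 71.0), from 20.8 to 33.8 in NASH (median 26.4) and from 22.1 to 123 in NASH-CH (median 34.2). It fell in NASH by 1.45 on the log2 scale (SE 0.28, adjusted p = 0.0110), with every NASH rat below every control. In NASH-CH, where the naming rule did not select it, it fell by 0.93 (SE 0.29, adjusted p = 0.0329), but 1 rat reached 123 CPM. That call was lost by edgeR (adjusted p = 0.153), by DESeq2 (0.113), with scaling by library size only (0.141) and with the 2 groups fitted alone (0.0838). It held in 4 of 12 fits without 1 rat, those without control rats 1, 2 or 6 or NASH-CH rat 5, with adjusted p from 0.0514 to 0.0737 in the others. Ube2l6, the enzyme that conjugates Isg15, ranged from 7.02 to 13.5 CPM in controls and from 4.90 to 6.95 in NASH, and it fell by 0.72 on the log2 scale (SE 0.18, adjusted p = 0.0344). That call held in 3 of 12 fits without 1 rat, those without control rat 2, control rat 6 or NASH rat 6, and in the others the adjusted p was between 0.0536 and 0.0944. It was also lost with scaling by library size only (adjusted p = 0.0517) and with no filter on low counts (0.0534). Lgals3bp, a secreted glycoprotein that binds galectins, rose in NASH-CH. It ranged from 5.73 to 11.2 CPM in controls (median 9.03), from 8.75 to 14.2 in NASH (median 10.7) and from 15.4 to 40.6 in NASH-CH (median 21.3), so that NASH-CH overlapped with neither of the other groups. Its log2 fold change was 1.32 against control (SE 0.22, adjusted p = 0.000437) and 1.01 against NASH (SE 0.21, adjusted p = 0.00652). Isg20, an exonuclease, ranged from 0.249 to 2.07 CPM in controls and from 1.44 to 2.18 in NASH-CH, where it rose by 0.98 on the log2 scale (SE 0.29, adjusted p = 0.0295), a call that was lost without control rats 1, 4 or 5 or NASH-CH rat 2, at adjusted p from 0.0509 to 0.0781. It was also lost by edgeR (adjusted p = 0.0899) and with the 2 groups fitted alone (0.0611).

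In NASH the genes known mainly as targets of interferon gamma mostly had log2 fold changes below 0, though few were called. Of 30 symbols 25 were found and 22 tested, and 0 rose and 2 fell in each comparison with controls, beside 3.12% of all genes called in NASH and 17% in NASH-CH (8.6% on the lower side). Over the other tests, scalings, filters and weights run, between 2 and 8 of the 22 fell in NASH (7 by DESeq2, 8 with sample quality weights), and between 0 and 5 in NASH-CH (0 with scaling by library size only, 5 with sample quality weights). The genes were Igtp and Irgm in both, which encode GTPases that act on vacuoles of intracellular pathogens. Igtp ranged from 45.4 to 69.7 CPM in controls (median 57.8), from 24.5 to 39.7 in NASH (median 31.9) and from 27.4 to 44.9 in NASH-CH (median 36.3). The treated groups did not overlap with the controls. Igtp had a log2 fold change of -0.86 in NASH (SE 0.15, adjusted p = 0.00562 by limma-voom) and -0.68 in NASH-CH (SE 0.15, adjusted p = 0.00509), and with scaling by library size only the latter had an adjusted p of 0.0674. Irgm ranged from 9.54 to 25.6 CPM in controls, from 4.41 to 9.35 in NASH and from 6.94 to 12.1 in NASH-CH, with log2 fold changes of -1.22 (SE 0.25, adjusted p = 0.0158) and -0.68 (SE 0.23, adjusted p = 0.0494). The call in NASH-CH held in 4 of 12 fits without 1 rat, those without control rat 2, control rat 6, NASH-CH rat 1 or NASH-CH rat 5, and in the others the adjusted p was between 0.0574 and 0.121. It was also lost with scaling by library size only (adjusted p = 0.150), with at least 10 counts in every sample (0.05002), with the 2 groups fitted alone (0.0773) and after thinning to equal totals (0.0548). At an unadjusted p under 0.05 by limma-voom, 10 of the 22 genes had lower values in NASH, against 11% of all genes on that side. In NASH-CH 4 of the 22 had lower values at that threshold, against 15.6% of all genes. The median of the 22 genes was -0.36 in NASH and -0.14 in NASH-CH, against 0.01 over all tested genes. All 22 values lay below 0 in NASH and 18 in NASH-CH, or 16 and 8 with scaling by library size only. That scaling put the median over all genes at 0.23 and 0.27. Relative to the median over all genes, the median of the 22 was -0.37 in NASH and -0.15 in NASH-CH with either scaling. Against NASH, 0 of the 22 genes passed in NASH-CH and their median was 0.34.

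**Figure D4:**
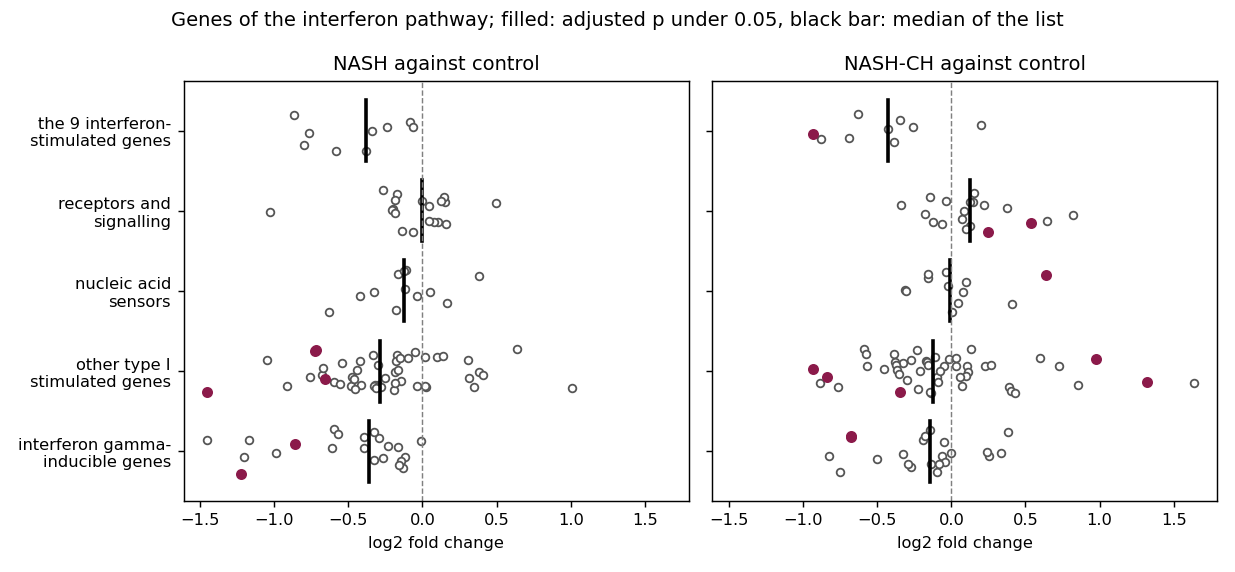
Log2 fold change of every tested gene of the interferon pathway by list, in NASH (left) and NASH-CH (right) against control, with filled points for an adjusted p under 0.05 and a black bar at the median of the list. The median of the 9 interferon-stimulated genes lies at -0.38 and -0.43, and filled points above 0 appear in NASH-CH and not in NASH.

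Bulk liver tissue was measured, so fewer cells of a type and less RNA per cell cannot be told apart. RNA of macrophage and Kupffer cell markers fell in the same comparison in which Usp18 fell. Of all tested genes, 17% were called in NASH-CH (8.6% on the lower side) and 3.12% in NASH, the background for each marker count below. Of the 9 macrophage and Kupffer cell markers, 6 fell in NASH-CH (Marco, Csf1r, Cd163, C1qb, Clec4f and Vsig4) and 1 in NASH (Marco), and 0 rose. Their summed level was 277 to 516 CPM in controls (median 324), 229 to 329 in NASH (median 256) and 193 to 287 in NASH-CH (median 247), and none of the 9 was at 0 in all rats. Clec4f, a marker of Kupffer cells, ranged from 75.3 to 188 CPM in controls and from 57.5 to 82.2 in NASH-CH. In stained liver sections, by contrast, the authors counted more macrophages positive for CD68 and CD163 protein in NASH-CH than in controls. RNA level and cell count are unlike measures, and the reason for the difference between them was not tested. The 5 markers of all leukocytes summed to 18.8 to 33.0 CPM in controls, 21.2 to 30.0 in NASH and 25.9 to 57.5 in NASH-CH, where rat 5 was the highest. The 8 markers of plasmacytoid dendritic cells, the strongest producers of type I interferon, summed to 30.3 to 48.7, 30.2 to 43.6 and 29.6 to 45.9 CPM in the same order. Among them Bst2, Irf8 and Tlr7 are also on the lists of interferon pathway genes above, so this sum is not separate from those lists. In NASH-CH 1 of the 8 markers rose (Tcf4, log2 fold change 0.63, adjusted p = 0.00692) and 1 fell (Il3ra, -0.66, adjusted p = 0.0344), and 1 leukocyte marker rose (Cd53, 0.71, adjusted p = 0.0408). Of the 7 hepatocyte markers, 1 fell in NASH and 3 in NASH-CH, with sums of 107154 to 152337 CPM in controls, 69785 to 114070 in NASH and 53497 to 109115 in NASH-CH. The part of these differences in the levels of the interferon-stimulated genes was not tested.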

How the data were processed

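RNA-seq was performed on liver of 6 control, 6 NASH and 6 NASH-CH rats. The authors trimmed adapters, aligned reads to Rnor_6.0 with STAR and quantified genes with RSEM and the genes of Ensembl release 95, and deposited expected counts per gene, 1 table per rat (tool versions are not given in the sources used here). The labels name a stranded TruSeq mRNA kit. Groups were taken from the labels.

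Expected counts were rounded and normalized by TMM (edgeR 4.0.16), and tested with limma-voom 3.58.1 in R 4.3.3 in 1 fit of 18 rats. filterByExpr kept 12904 genes, over which p-values were adjusted by the Benjamini-Hochberg method at a threshold of 0.05. A prior count of 2 was used for log2 CPM. The test scripts were tried on simulated data. DESeq2 1.42.0, other scalings, filters and weights were alternatives.

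The members and the lists of pathway and marker genes were chosen with earlier results of these data known. Named genes were the 9 members, 10 fixed pathway genes and, for each list and comparison, up to 3 called genes with the largest absolute moderated t. The text also gives the 10 genes most like the members over the rats, except that a few genes the rule selects are not reported here. Rats numbered alike in different groups did not deviate together (mean r from 0.02 to 0.07 over 6 pairs in each comparison), so no pairing was used. No 2 rats of a group had counts that agreed within sampling noise. P-values measure the spread between rats.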

Additional observations from a re-analysis of the deposited data

Results flagged for a closer look

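Of the 27 combinations of a member and a group of 6 rats, 3 had a rat that stood far from the other 5 by Dixon's criterion. Chance alone meets it in about 1 of 20 groups if values are normally distributed, and it was applied to CPM on a linear scale. Ifit3 was at 9.47 CPM in control rat 6, where the next control was at 4.69 CPM. Ifit3 was also high in NASH rat 4, at 8.56 CPM against 3.22 CPM in the next NASH rat, and this was the rat with the highest value of its group for 8 of 9 members. Rsad2 was at 2.16 CPM in NASH-CH rat 5, where the next rat was at 1.12 CPM. That rat also had the highest sum of leukocyte markers, 57.5 CPM, and the part of this in its Rsad2 level was not tested.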

How the results depend on the processing

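The number of interferon-stimulated genes called stayed at 0 in NASH against control under every alternative but sample quality weights, where it was 1 (Irf7). It stayed at 0 in NASH-CH against NASH under every alternative run. In NASH-CH against control it was 1, and it became 2 by the DESeq2 Wald test (Mx2 and Usp18) and with sample quality weights (Irf7 and Usp18), and 0 with scaling by library size only, with an adjusted p under 0.01 or with an absolute log2 fold change of at least 1. Leaving out 1 rat in turn gave 0 in NASH, 1 to 2 in NASH-CH against control and 0 in NASH-CH against NASH. The replicate block, with rat number as the pairing, gave 0, 1 and 0, the same numbers as without it, though Ifnar1 (adjusted p = 0.0522) and Isg20 (adjusted p = 0.0735) lost their calls in NASH-CH. Thinning all libraries to 19498516 counts gave 0, 1 and 0 as well.

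With scaling by library size only, values in NASH turned to 0.14 (Ifit2), 0.088 (Rsad2), 0.021 (Stat2), 0.025 (Irf9), 0.038 (Ifnar2), 0.10 (Irf3) and 0.057 (Ifih1), and in NASH-CH to 0.025 (Ifit3), 0.18 (Stat2), 0.075 (Irf9), 0.23 (Irf3) and 0.10 (Ifih1). Against NASH they turned to 0.040 (Isg15), 0.033 (Mx2) and 0.034 (Ifit3). That scaling put the median over all tested genes at 0.23 in NASH, 0.27 in NASH-CH and 0.040 in NASH-CH against NASH. With sample quality weights, Stat2 turned to 0.12 and Irf3 to 0.028 in NASH-CH against control, and Isg15 to 0.035, Mx2 to 0.023 and Ifit3 to 0.081 against NASH. Isg15 also turned to 0.0012 with at least 10 counts in every sample, and Mx2 to 0.074 after thinning, both against NASH. Without 1 rat, values in NASH ranged from -0.47 to 0.054 for Ifit3 and from -0.25 to 0.16 for Rsad2, and in NASH-CH from -0.39 to 0.030 for Ifit3, from -0.20 to 0.057 for Stat2 and from -0.049 to 0.035 for Irf3. Against NASH they ranged from -0.11 to 0.11 for Isg15, from -0.18 to 0.15 for Mx2, from -0.16 to 0.22 for Ifit3 and from -0.071 to 0.26 for Irf7. None of these values of single genes passed the test, and the cause of each change was not tested. Member counts as low as 16 per library limit what could be detected.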
